A study of Mus musculus with 4 samples.

Results

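The genes of the interferon regulatory factors were followed in stromal cells that had been sorted by podoplanin from the large intestine of mice. The 8 genes were taken by symbol and not by their values: Irf1, Irf2, Irf3, Irf4, Irf5, Irf7, Irf8 and Irf9, out of 23284 symbols listed for each library. All 8 were found in all 4 libraries.

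Interferon regulatory factors are transcription factors that share an amino-terminal DNA-binding domain with conserved tryptophans and bind GAAA repeats in the promoters of interferon-stimulated genes. IRF3 and IRF7 wait in the cytoplasm, are phosphorylated downstream of nucleic acid sensors and switch on type I interferon genes, whereas IRF9 joins STAT2 in the complex that answers type I interferon. IRF1 is induced by interferon-gamma and drives antigen presentation genes, IRF2 competes with it for the same sites, IRF5 acts below Toll-like receptors in myeloid cells, and IRF4 and IRF8 are best known from lymphocytes, dendritic cells and macrophages.

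Each group had 1 library: C57BL/6J mice labelled IL-10 KO, C57BL/6J wild type, BALB/c mice labelled Rag2 KO, and BALB/c wild type. The sort took living (7AAD-negative) Podoplanin+ cells without CD45, CD31 or EpCAM, the surface proteins of leukocytes, endothelium and epithelium. IL-10 is a cytokine that restrains inflammation, and without Rag2 neither T nor B cells mature. The knockouts lie in different strains, and the labels give neither the age, the sex nor the number of animals behind a library. Values are FPKM, the authors' fragments scaled to transcript length and library size, so levels of different genes can be set side by side. Since no group was repeated, there is neither replicate error nor a test between groups: "higher" and "lower" describe these libraries, and every interval covers counting error only.

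The depth, estimated from the steps between low FPKM values, was 8410000 to 9980000 fragments, and 11808 to 12301 genes reached 1 FPKM. At the lowest depth a count of 3 fragments on a transcript of 2000 nt corresponds to 0.199 FPKM. The deleted genes give no check of the labels, since whole-gene FPKM cannot show the loss of part of a gene: Il10 had 129.9 FPKM in the library labelled IL-10 KO and 3.33 in C57BL/6J wild type, and Rag2 had 0.712 FPKM in the library labelled Rag2 KO, with the BALB/c wild type listed at 0. The libraries also differed in sex-linked RNA, with Xist at 44.9, 23.0, 0.105 and 0.0509 FPKM and Ddx3y at 0.0269, 16.9, 31.5 and 36.3 FPKM in IL-10 KO, its wild type, Rag2 KO and its wild type. Genotype and sex therefore cannot be told apart in the IL-10 comparison, whereas the Rag2 pair was close in Ddx3y and low in Xist. Fibroblast genes dominated all 4 libraries (summed FPKM of 12 markers 13814 to 15539), with Pdgfra at 101.9, 139.9, 120 and 149 FPKM in the same order, and Pdpn, the gene of the sort marker, had 204, 158, 292.5 and 189.6 FPKM.

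Irf1 was by far the most abundant family member in every library. It made up 76.9% of the summed FPKM of the 8 genes in IL-10 KO, 81.9% in C57BL/6J wild type, 77.4% in Rag2 KO and 78.1% in BALB/c wild type. Its level exceeded that of 99.3% to 99.5% of all genes with at least 1 FPKM. Irf4 was the lowest member everywhere. Between these ends the order differed between knockouts and wild types: Irf7 stood second in IL-10 KO and Rag2 KO, whereas Irf8 stood second in both wild types, with Irf7 below Irf9 in each of them. Several neighbours in the order were not separated by their 95% counting intervals. They were Irf7 and Irf8, Irf2 and Irf5, and Irf5 and Irf3 in IL-10 KO, Irf3 and Irf7 in C57BL/6J wild type, Irf2 and Irf3 and also Irf3 and Irf5 in Rag2 KO, and Irf8 and Irf9 and also Irf3 and Irf2 in BALB/c wild type. The plot of levels by library shows these orders.

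**Figure D1:**
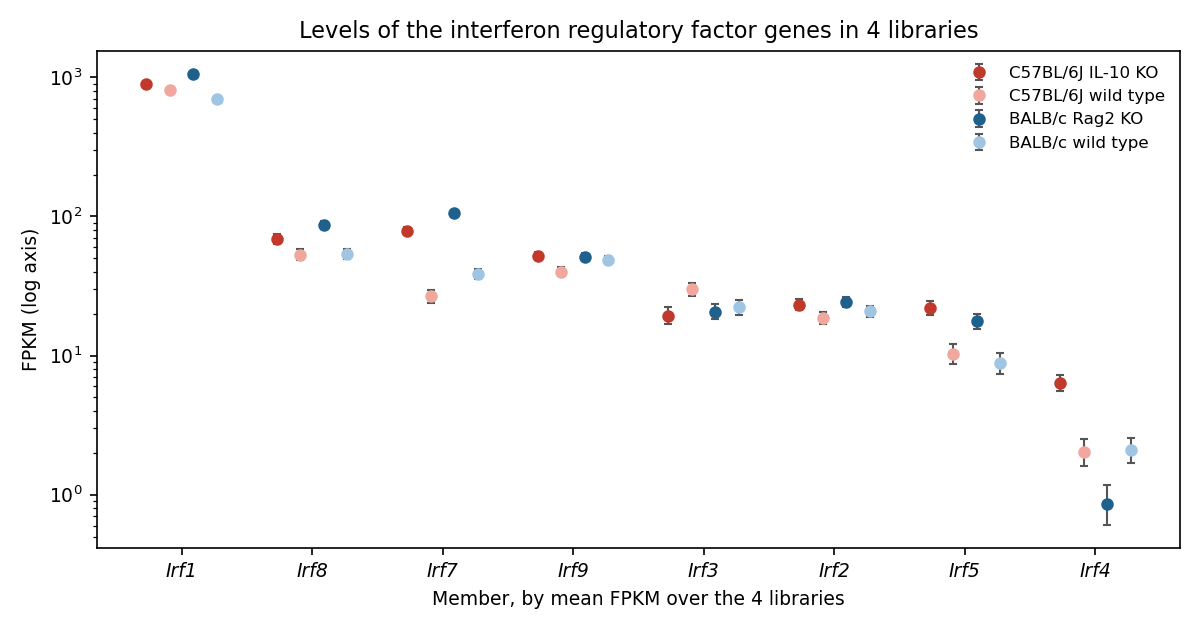
FPKM (log axis) of the 8 interferon regulatory factor genes in C57BL/6J IL-10 KO, C57BL/6J wild type, BALB/c Rag2 KO and BALB/c wild type, 1 point per library, with bars for the 95% Poisson counting interval at the estimated depth. Irf1 lies between 697 and 1053 FPKM, Irf4 between 0.852 and 6.38 FPKM, and Irf7 is higher in both knockouts than in both wild types.

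In the library labelled IL-10 KO, Irf7, Irf4 and Irf5 were at least 2-fold higher than in C57BL/6J wild type and no member was 2-fold lower. Counted on log2 of FPKM plus 1 (called the log2 ratio below), this is 3 of 8 members (37.5%) higher and 0 lower. Of the 12790 genes with at least 1 FPKM in either library, 10.1% passed 2-fold upward and 3.82% downward. The members' median log2 ratio was 0.37, against -0.0018 over all genes compared. On FPKM plus 1, only Irf7 of the 8 was at least 2-fold higher in the library labelled Rag2 KO than in BALB/c wild type. That is 12.5% of the members higher and 0 lower, where 4.42% and 2.03% of 12336 genes were. All such counts use FPKM plus 1. With 0.1 added in place of 1, Irf4 was counted lower in Rag2 KO, and on the plain FPKM ratio it was 0.409-fold. The median log2 ratio of the members was 0.40 there, against -0.0041 over all genes. With so few members these shares only describe the family, and all 8 passed the filter in both comparisons.

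Taken across the strains, 6 of 8 members (Irf1, Irf2, Irf5, Irf7, Irf8 and Irf9) were higher in both knockout libraries than in both wild types, and Irf3 was lower in both knockouts. Among 13078 genes with at least 1 FPKM in some library, 25.4% lay above both wild types in both knockouts and 24.7% below. Irf4 was the member that followed neither order. These orders take no account of counting error. In the Rag2 comparison the interval of the plain log2 ratio held 0 for Irf9 (-0.05 to 0.20) and Irf3 (-0.36 to 0.15). The level intervals of Irf2 in IL-10 KO (21.1 to 25.5 FPKM) and BALB/c wild type (19.1 to 22.9 FPKM) overlapped. Scaled without small RNAs, Irf9 was lower in Rag2 KO than in BALB/c wild type (log2 ratio -0.07) and so left this order.

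**Figure D2:**
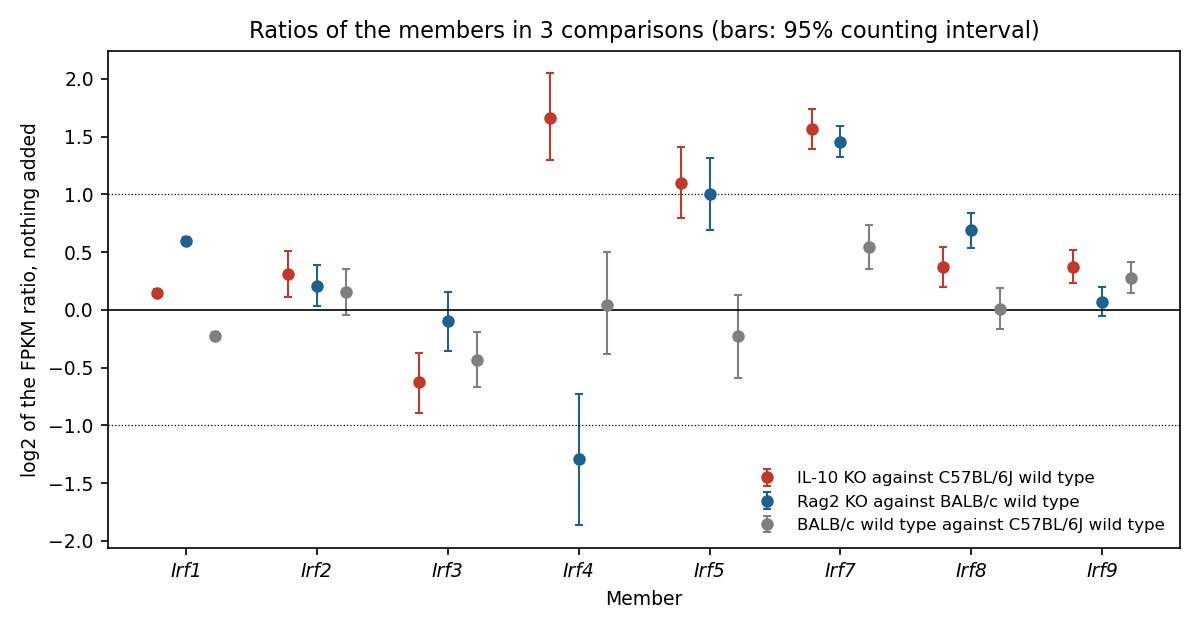
Log2 of the FPKM ratio with nothing added, for each member in IL-10 KO against C57BL/6J wild type, Rag2 KO against its BALB/c wild type, and the BALB/c over the C57BL/6J wild type; bars are 95% counting intervals and dotted lines mark 2-fold. Irf7 lies above 2-fold in both knockout comparisons, and Irf4 lies above 0 in the IL-10 comparison and below 0 in the Rag2 comparison.

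Of the factors that switch on type I interferon genes, Irf7 was past 2-fold in both knockout comparisons. On FPKM plus 1 its log2 ratio was above those of the other members in each, but on the plain ratio Irf4 stood above it in the IL-10 comparison (3.16-fold for Irf4 and 2.96-fold for Irf7). Irf7 (chr7:141263183-141266499, minus strand, GRCm38/mm10; 10 exons in its longest transcript), the amplifier of the response, is itself an interferon-stimulated gene. It had 78.8 FPKM in IL-10 KO, against 26.6 FPKM in C57BL/6J wild type, a log2 ratio of 1.53. In Rag2 KO it had 106.7 FPKM, against 38.8 FPKM in BALB/c wild type, a log2 ratio of 1.43. Both knockouts stood above both wild types, and the 95% counting interval of the plain log2 ratio was 1.39 to 1.74 in the first comparison and 1.32 to 1.60 in the second. Of all genes compared, 94.4% had a lower ratio than Irf7 for IL-10 KO and 97.6% for Rag2 KO. Against the wild type of the other strain, an alternative chosen after seeing the data, the log2 ratio was 1.003 for IL-10 KO and 1.97 for Rag2 KO, with the wild types 1.46-fold apart in Irf7.

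Irf3 (chr7:44997648-45002848, plus strand), whose protein is present before any stimulus, did not follow Irf7. It had 19.4 FPKM in IL-10 KO against 29.9 in C57BL/6J wild type; Rag2 KO had 20.7 FPKM against 22.2 FPKM in BALB/c wild type. The log2 ratios were -0.60 and -0.10; the counting interval of the plain ratio lay below 0 in the IL-10 comparison (-0.89 to -0.37) and held 0 in the Rag2 comparison (-0.36 to 0.15). C57BL/6J wild type was the highest of the 4 libraries, and against BALB/c wild type the log2 ratio of IL-10 KO was -0.19. The FPKM ratio of Irf7 to Irf3 was 4.07 in IL-10 KO against 0.888 in C57BL/6J wild type, and 5.16 in Rag2 KO against 1.75 in BALB/c wild type.

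Irf9, the DNA-binding part of the complex with STAT2, differed by at most 1.30-fold, while Stat2 differed more. Irf9 (chr14:55603985-55610030, plus strand) had 52.1 FPKM in IL-10 KO against 40.1 in C57BL/6J wild type; Rag2 KO had 51.2 FPKM against 48.7 in BALB/c wild type. Its log2 ratio was 0.37 for IL-10 KO (counting interval of the plain ratio 0.24 to 0.52). For Rag2 KO it was 0.07, with an interval that held 0 (-0.05 to 0.20), and -0.07 when libraries were scaled without small RNAs. That scaling shifted the median of all genes in the Rag2 comparison by -0.13. Stat2 was 2.44-fold higher in IL-10 KO and 2.503-fold higher in Rag2 KO, with 47.2 against 19.4 FPKM and 44.4 against 17.7 FPKM.

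Irf1 (chr11:53770014-53778374, plus strand), the interferon-gamma-induced activator, had 902.9 FPKM in IL-10 KO against 817 FPKM in C57BL/6J wild type. In Rag2 KO it had 1053 FPKM, against 697 FPKM in BALB/c wild type. These are 1.10-fold and 1.51-fold differences, with log2 ratios of 0.14 and 0.60. At 12926 to 19009 estimated fragments per library the counting intervals were narrow (0.11 to 0.18 and 0.56 to 0.63), but the wild types also differed by -0.23, which is larger in size than the IL-10 difference. Scaled without small RNAs, which shifted the median of all genes in this comparison by -0.13, the IL-10 log2 ratio was 0.0051.

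Irf2 (chr8:46739745-46847458, plus strand), the factor that competes with IRF1, varied little. It had 23.2 FPKM in IL-10 KO against 18.7 in C57BL/6J wild type; Rag2 KO had 24.2 FPKM against 20.9 in BALB/c wild type. The log2 ratios were 0.30 and 0.20, and the FPKM ratio of Irf1 to Irf2 was 38.9 in IL-10 KO, 43.6 in C57BL/6J wild type, 43.5 in Rag2 KO and 33.3 in BALB/c wild type, with no common order of knockouts and wild types.

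The promoters of Irf1, Irf2 and Irf8 are shown because their start-site windows hold the letters TTCNNNGAA, the core of the gamma-activated site found in interferon-gamma-induced genes; those of the other members do not. The windows run from 250 bases before to 50 bases after each RefSeq start (GRCm38.p6), and the 8 members have 11 of them. A search of both strands found TTCNNNGAA in windows of 3 of 8 members and in 8.30% of all 32851 windows (9.55% of genes). The paired GAAANNGAAA of the interferon-stimulated response element was found in 1 member, Irf2, and in 3.44% of windows; GAAA repeats 1 to 3 bases apart were found in the same member and in 8.61% of windows. A match is a description of letters and not a bound site, and a window without a match says nothing of the factor. Capitals mark the matches, which do not overlap each other. The stretches lie at chr11:53769884-53769972, chr8:46739495-46739569 and chr8:120736147-120736235, all on the plus strand and before the start.
Irf1: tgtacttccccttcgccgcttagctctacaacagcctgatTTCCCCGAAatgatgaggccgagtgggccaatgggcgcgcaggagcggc
Irf2: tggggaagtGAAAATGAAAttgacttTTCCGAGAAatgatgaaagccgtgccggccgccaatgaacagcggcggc
Irf8: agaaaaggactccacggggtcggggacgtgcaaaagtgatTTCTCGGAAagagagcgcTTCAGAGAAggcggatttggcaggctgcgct

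In Irf1 the match lies 90 to 82 bases before the start. Irf2 holds its GAAA pair at 241 to 232 bases and its TTCNNNGAA at 224 to 216 bases before the start, and Irf8 holds 2 matches of TTCNNNGAA, at 171 to 163 and 153 to 145 bases. The log2 ratios of the 3 genes with these letters were 0.14 to 0.37 for IL-10 KO and 0.20 to 0.68 for Rag2 KO. Members whose windows hold none of the letters searched ran from -0.60 (Irf3) to 1.53 (Irf7) for IL-10 KO. For Rag2 KO they ran from -0.73 (Irf4) to 1.43 (Irf7). A relation between letters and ratios was not tested.

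Irf5 (chr6:29526130-29541869, plus strand), which acts below Toll-like receptors, was higher in both knockouts by similar amounts. It had 22.1 FPKM in IL-10 KO against 10.3 in C57BL/6J wild type; Rag2 KO had 17.6 FPKM against 8.80 in BALB/c wild type. Its log2 ratio of 1.03 for IL-10 KO is just past the 2-fold threshold and that of 0.92 for Rag2 KO just short of it. The counting intervals of the plain log2 ratio were 0.80 to 1.41 and 0.69 to 1.32, so both overlap the threshold. Both knockouts stood above both wild types.

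Irf4 (chr13:30749233-30766981, plus strand), a factor of lymphocytes and plasma cells, moved in opposite directions. It had 6.38 FPKM in IL-10 KO against 2.02 in C57BL/6J wild type; Rag2 KO had 0.852 FPKM against 2.08 FPKM in BALB/c wild type. The wild types were alike, IL-10 KO was the highest library and Rag2 KO the lowest. The log2 ratios were 1.29 and -0.73, a difference of 2.03 between the knockout comparisons, and 8.19% of 12048 genes differed by at least 1 between them in either direction. No other member did: for the other 7 the difference ran from -0.51 (Irf3) to 0.30 (Irf9). Irf4 rested on about 244, 80, 38 and 95 fragments in IL-10 KO, C57BL/6J wild type, Rag2 KO and BALB/c wild type. The counting intervals of its plain log2 ratio were 1.30 to 2.05 for IL-10 and -1.87 to -0.73 for Rag2. Because 1 is added to a low FPKM, the log2 ratio understates this gene: the plain ratios were 3.16-fold and 0.409-fold, and with 5 added the IL-10 log2 ratio was 0.70.

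Irf8 (chr8:120736358-120756694, plus strand), known from macrophages, dendritic cells and B cells, was among the most abundant members and was moderately higher in the knockouts. It had 68.8 FPKM in IL-10 KO against 53.1 in C57BL/6J wild type; Rag2 KO had 86.2 FPKM against 53.5 in BALB/c wild type. The wild types lay within 1.01-fold of each other, below both knockouts. The log2 ratios were 0.37 and 0.68, with counting intervals of the plain ratio from 0.20 to 0.55 and from 0.54 to 0.84.

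**Figure D3:**
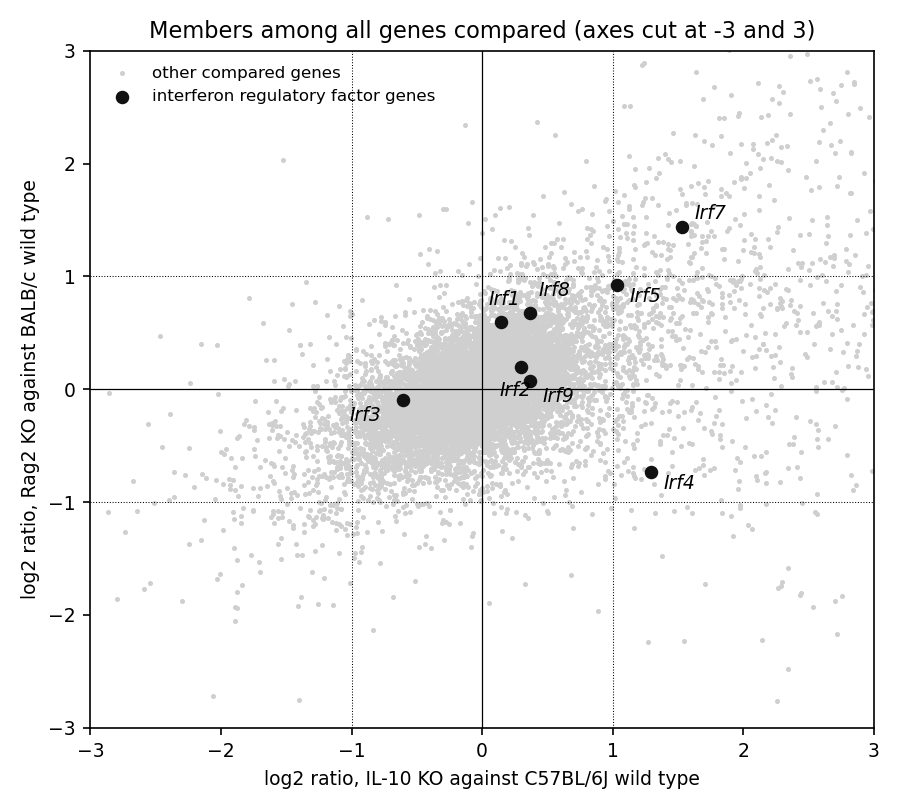
Log2 ratio (log2 of FPKM plus 1) of IL-10 KO against C57BL/6J wild type (horizontal) and of Rag2 KO against BALB/c wild type (vertical) for 12048 genes compared in both (grey) and the 8 members (black); the axes end at -3 and 3 and dotted lines mark 2-fold. Irf7 lies past 2-fold on both axes (1.53 and 1.43), and Irf4 lies at 1.29 and -0.73.

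Leukocyte markers were higher in IL-10 KO by far more than Irf8 was. Ptprc, the gene of CD45, had 43.1 FPKM in IL-10 KO against 3.34 FPKM in C57BL/6J wild type (12.9-fold) and 11.5 FPKM in Rag2 KO against 8.31 FPKM in BALB/c wild type (1.39-fold). All 12 genes of a list for leukocytes of any kind were past 2-fold in IL-10 KO, with summed FPKM of 1082 against 102, and 2 of 12 in Rag2 KO (337 against 185). Set against Ptprc, Irf8 was at 1.59 FPKM per FPKM of Ptprc in IL-10 KO, 15.9 in C57BL/6J wild type, 7.47 in Rag2 KO and 6.44 in BALB/c wild type. Irf8 was thus 1.30-fold higher in IL-10 KO where Ptprc was 12.9-fold higher. The part of leukocytes in the Irf8 values was not tested. In bulk RNA, fewer cells of a type and less RNA per cell cannot be told apart.

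A marker gene of B cells, Ms4a1, had the same order of libraries as Irf4. Ms4a1, which encodes CD20, had 9.53 FPKM in IL-10 KO, 0.556 in C57BL/6J wild type, 0.0558 in Rag2 KO and 2.76 in BALB/c wild type. Ms4a1 was well above C57BL/6J wild type in BALB/c wild type, where Irf4 was 1.03-fold as high. The order was not particular to B cell genes. T cell markers Cd3g, Cd2, Cd3d and Cd4 had it too, with Cd3g at 18.4, 0.842, 0 and 2.21 FPKM, whereas Cd3e and Lck did not. Of the B and plasma cell list, Igj, Xbp1 and Sdc1 did not have it. These genes were named after their values were seen. Of 11 B and plasma cell markers 8 passed 2-fold upward in IL-10 KO and 0 downward, while 9 were lower and 1 higher in Rag2 KO, where Pax5, Fcrla and Pou2af1 were listed at 0. Their summed FPKM was 733.7 in IL-10 KO against 485 in C57BL/6J wild type, and 269.7 in Rag2 KO against 637 in BALB/c wild type. Xbp1 (189 FPKM) and Sdc1 (78.0 FPKM), both higher in Rag2 KO than in BALB/c wild type, take nearly all of the Rag2 KO sum. Xbp1 and Igj take most of the other sums, and Igj had 1.36 FPKM in Rag2 KO against 428 in BALB/c wild type. The part of B, plasma and T cells in the Irf4 values was not tested.

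Myeloid and T cell markers gave a further reference for Irf5 and Irf8. Csf1r, the growth factor receptor of macrophages, had 41.0 FPKM in IL-10 KO and 6.77 in C57BL/6J wild type, and 18.8 in Rag2 KO and 12.9 in BALB/c wild type. Of 12 macrophage and monocyte markers 9 were at least 2-fold higher in IL-10 KO (summed FPKM 1271 against 213) and 3 in Rag2 KO (678 against 344). Flt3, a receptor of dendritic cells, had 2.14 FPKM in IL-10 KO, 0.232 in C57BL/6J wild type, 0.269 in Rag2 KO and 0.349 in BALB/c wild type. Zbtb46, another gene of dendritic cells, was similar in all 4 (4.65, 3.71, 4.30 and 3.44 FPKM). Of the dendritic cell markers 6 of 11 were at least 2-fold higher in IL-10 KO (316.5 against 127) and 2 of 5 in Rag2 KO (355 against 112), and Bst2, an interferon-stimulated gene, takes most of these sums. Of T cell and innate lymphoid markers 9 of 11 were higher in IL-10 KO (199 against 67.4), and 1 was higher and 2 lower of 11 in Rag2 KO (116 against 83.6), with Cd3e at 7.08, 0.372, 1.26 and 1.22 FPKM. Thy1, which fibroblasts also express and which stands in both lists, takes most of the T cell sum in Rag2 KO and both wild types. Without it, an alternative chosen after seeing the data, the sums were 110.5 in IL-10 KO against 9.02 in C57BL/6J wild type, and 13.2 in Rag2 KO against 21.9 in BALB/c wild type, so that the Rag2 direction turned. All 9 neutrophil markers were at least 2-fold higher in IL-10 KO. In the Rag2 comparison 6 of the 9 passed the filter of 1 FPKM, and those 6 were higher. Summed FPKM over the 9 was 3865 against 10.6 and 246 against 24.7. S100a8 was at 1624 against 0.621 FPKM and 75.1 against 3.81 FPKM. Ngp, Ltf and Mmp8, dropped in the Rag2 comparison, had log2 ratios of 0.0071, 0.057 and 0.23 there. In C57BL/6J wild type, S100a8, Csf3r, Cxcr2, Ngp, Ltf and Mmp8 were below 1 FPKM, so they passed only through IL-10 KO. In BALB/c wild type, Csf3r (0.445 FPKM) and Cxcr2 were below 1 FPKM and passed only through Rag2 KO. Genes that pass this way can be counted higher but not lower. Cxcr2 had 10.5 and 1.13 FPKM in the knockouts, with both wild types listed at 0. The part of these leukocytes in the Irf5, Irf7 and Irf8 values was not tested.

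**Figure D4:**
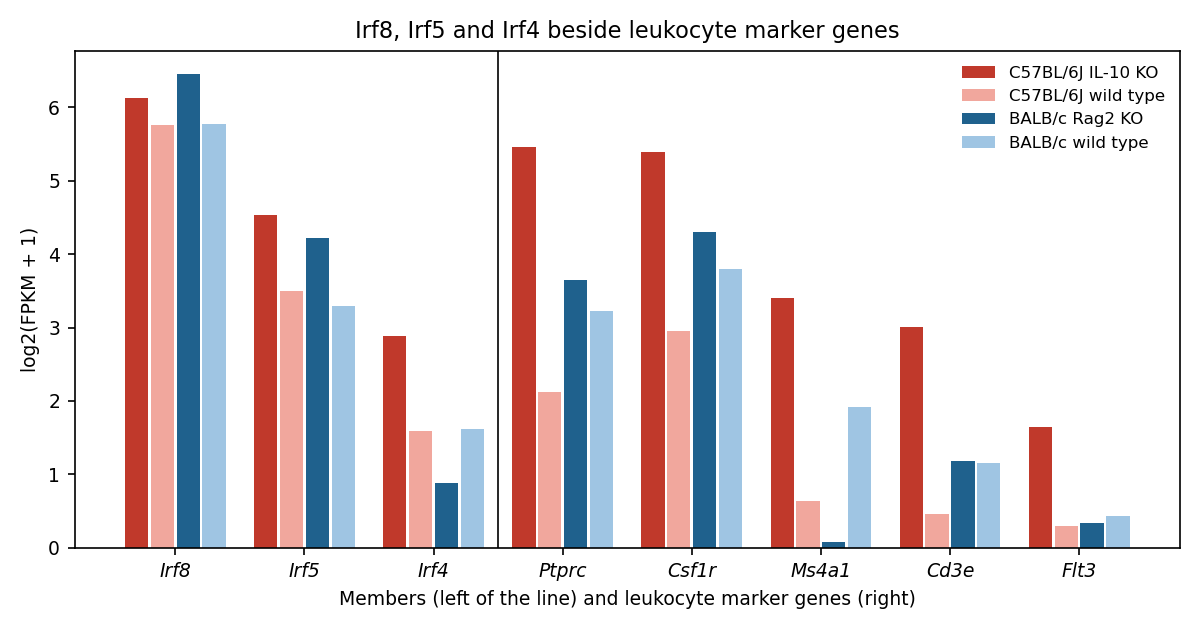
Log2 of FPKM plus 1 of Irf8, Irf5 and Irf4 (left of the line) and of the leukocyte marker genes Ptprc, Csf1r, Ms4a1, Cd3e and Flt3 (right) in C57BL/6J IL-10 KO, C57BL/6J wild type, BALB/c Rag2 KO and BALB/c wild type, 1 bar per library. Irf8 stays between 53.1 and 86.2 FPKM while Ptprc runs from 3.34 to 43.1 FPKM, and Irf4 and Ms4a1 are highest in IL-10 KO and lowest in Rag2 KO.

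Outside the leukocytes, epithelial markers were at least 2-fold higher in 12 of 12 genes in IL-10 KO (summed FPKM 397 against 104) and 11 of 11 in Rag2 KO (164 against 40.4), with Epcam at 21.1 against 6.29 FPKM and 9.35 against 2.76 FPKM. Fxyd3 was listed at 0 in every library except IL-10 KO. The part of epithelium in the members' values was not tested. On FPKM plus 1, no blood endothelial marker of 8 was 2-fold apart in a knockout comparison (summed FPKM 68.4 against 57.6 and 52.1 against 58.1, Pecam1 at 17.9 against 12.4 and 13.3 against 13.3 FPKM). With nothing added, Tek was 2.08-fold in the IL-10 comparison, and Cldn5 was 0.496-fold there and 0.461-fold in the Rag2 comparison; both were named after their values were seen. Of 6 lymphatic markers 2 were lower in IL-10 KO (43.9 against 71.1) and 0 in Rag2 KO (59.7 against 103), with Lyve1 at 4.96 against 12.2 FPKM and 5.54 against 10.2 FPKM. Of 12 fibroblast genes 0 were 2-fold apart in either comparison.

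Among the genes that act upstream of the family, Stat2 was past 2-fold in both knockouts. Of 17 genes of interferon receptor signalling and IRF activation, 4 were at least 2-fold higher in IL-10 KO (among them Stat2, Tmem173 and Ifngr2) and 2 in Rag2 KO (among them Stat2), with medians of 0.62 and 0.23 and 0 lower. Tmem173, which encodes the DNA response adaptor STING, had 50.4 FPKM in IL-10 KO against 23.3 in C57BL/6J wild type (log2 ratio 1.08), and 51.5 in Rag2 KO against 30.4 in BALB/c wild type (0.74). Ifngr2, a chain of the interferon-gamma receptor, had 24.9 against 11.8 FPKM (1.02) and 13.1 against 11.1 FPKM (0.22). The kinase gene Tbk1, whose product phosphorylates IRF3, had 17.3 against 11.6 FPKM (0.53) and 19.5 against 17.3 FPKM (0.17); it and Ifnb1 were named after their values were seen. Among the interferon genes themselves, Ifng had 11.7 FPKM in IL-10 KO against 0.114 in C57BL/6J wild type and 3.61 in Rag2 KO against 0.301 in BALB/c wild type. Ifnb1, the gene IRF3 switches on first, had 0.212 FPKM in IL-10 KO and 0.183 in Rag2 KO, at most a few fragments at this depth, and was listed at 0 in both wild types. Ifna1, Ifna2, Ifna4 and Ifne were listed at 0 in all 4 libraries, and Ifnk had 0.337 FPKM in Rag2 KO and 0 elsewhere.

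Of 11 partners and corepressors found, 5 were past 2-fold upward in IL-10 KO (among them Spib, Batf2, Batf3 and Stat2) and 3 in Rag2 KO (among them Batf2 and Stat2), with 0 lower and medians of 0.42 and -0.04. Spib, which encodes a partner of IRF4 and IRF8 in B cells and dendritic cells, had 9.74 FPKM in IL-10 KO against 0.576 in C57BL/6J wild type, and 2.28 in Rag2 KO against 2.25 in BALB/c wild type. Batf2, which encodes a partner of IRF1 in macrophages, had 20.7 against 3.93 FPKM and 62.1 against 10.9 FPKM, a log2 ratio of 2.14 and 2.41. Stat2, given above, counts in this list too. The corepressor genes of IRF2, named after their values were seen, stayed within 2-fold: Irf2bp1 had log2 ratios of -0.56 and -0.58, and Irf2bp2 of 0.42 and -0.05.

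Most genes known as targets of IRF1 and of the IRF9 complex were higher in both knockouts. Of 20 genes bound by the IRF9 complex, 14 were past 2-fold in IL-10 KO and 14 in Rag2 KO, with 0 lower and median log2 ratios of 1.55 and 1.64. Oas2, whose enzyme is switched on by double-stranded RNA, had 7.00 FPKM in IL-10 KO against 0.844 in C57BL/6J wild type and 8.26 in Rag2 KO against 0.411 in BALB/c wild type. Isg15, a ubiquitin-like modifier, was at 205.5 against 44.4 FPKM and 203 against 43.9 FPKM, and log2 ratios were 2.25 and 2.26 for Ifit1 and 2.21 and 2.05 for Ifi44. Of 20 genes known as IRF1 targets, 18 were higher in IL-10 KO and 17 in Rag2 KO, with 0 lower and medians of 2.0996 and 2.05. Zbp1, a sensor of nucleic acids, had 77.6 FPKM in IL-10 KO against 4.86 in C57BL/6J wild type and 109 in Rag2 KO against 7.14 in BALB/c wild type. The log2 ratios were 3.36 and 2.48 for Gbp2, 3.30 and 3.17 for Nlrc5, and 3.09 and 2.28 for Cd274, which encodes PD-L1. Irf9 and Irf1 had log2 ratios of 0.37 and 0.14 in IL-10 KO and 0.07 and 0.60 in Rag2 KO. Over all genes compared the medians were -0.0018 and -0.0041, and 10.1% and 4.42% were at least 2-fold higher. Some listed genes were below 1 FPKM in the wild type, passed the filter only through the knockout and so could not be counted lower. In the IRF9 list these were Mx1, Oas2 and Ifi44 in both comparisons, Oasl1 for IL-10 KO, and Oas1a and Rsad2 for Rag2 KO. In the IRF1 list they were Ciita, Nos2 and Ido1 in both comparisons.

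**Figure D5:**
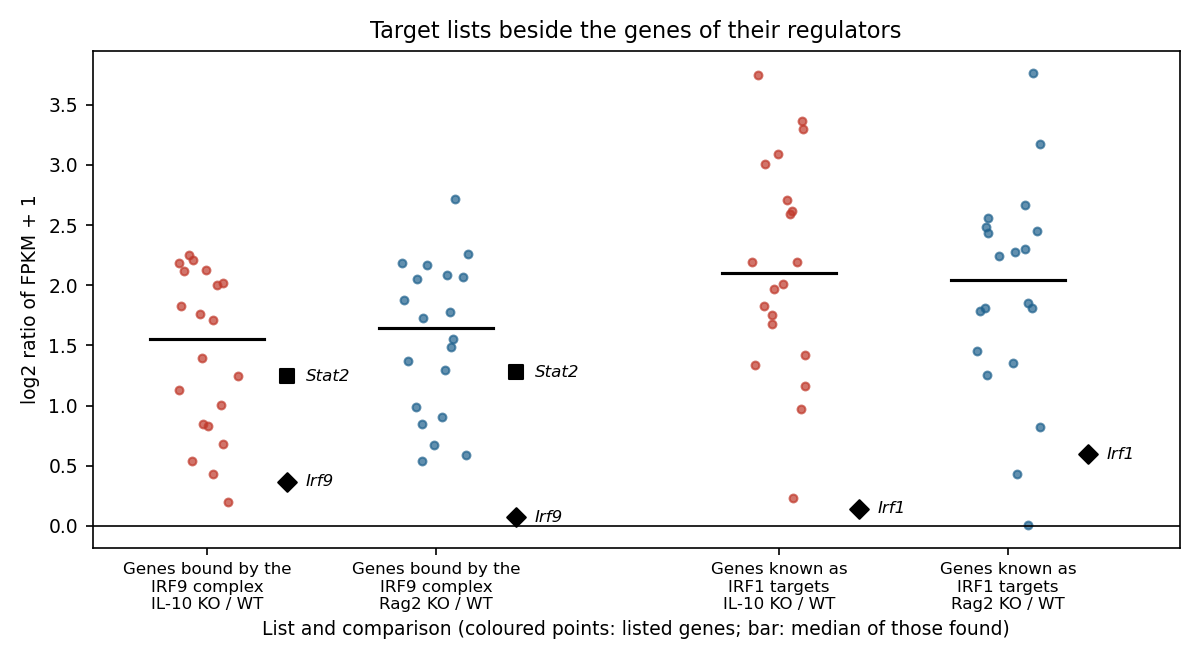
Log2 ratios of 20 genes bound by the IRF9 complex and 20 genes known as IRF1 targets (coloured points, with the list's median as a bar) in IL-10 KO against C57BL/6J wild type and Rag2 KO against BALB/c wild type, beside the genes of the regulators (black marks). Stat2 (1.24 and 1.28) lies below the medians of the first list, 1.55 and 1.64, and Irf9 (0.37 and 0.07) and Irf1 (0.14 and 0.60) also lie below the medians of their lists.

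Among genes known as IRF8 or IRF4 targets in immune cells, 7 of 11 passed 2-fold upward in IL-10 KO and 0 downward (median 1.37), and in Rag2 KO 4 of 11 were higher and 1, Ms4a1, lower (median 0.31). Cybb, a subunit of the phagocyte oxidase, had 30.7 FPKM in IL-10 KO against 1.41 in C57BL/6J wild type and 11.98 in Rag2 KO against 4.63 in BALB/c wild type. Ctss, a protease of antigen processing, had 157 against 15.5 FPKM and 78.7 against 27.7 FPKM, and Itgax, which encodes CD11c, had log2 ratios of 2.86 and 1.19. The difference between the knockouts was not tested. Cst3, Naaa, Bcl6 and Prdm1 of this list, named after their values were seen, stayed within 2-fold in both comparisons. Cst3 ran from 783 to 1221 FPKM and Naaa from 20.6 to 37.2 FPKM over the 4 libraries. The part of leukocytes in the values of this list was not tested.

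Between the wild types no member was 2-fold apart: 0 of 8 were higher and 0 lower in BALB/c wild type than in C57BL/6J wild type, where 1.81% and 2.17% of 12290 genes were. The log2 ratios ran from -0.42 (Irf3) to 0.53 (Irf7), with a median of 0.02 against 0.0044 over all genes. Counting intervals of the plain ratio lay away from 0 for Irf7 (0.35 to 0.74), Irf9 (0.14 to 0.42), Irf1 (-0.26 to -0.19) and Irf3 (-0.67 to -0.19). This comparison shares a library with each knockout comparison, and strain, sex and individual animals cannot be told apart in it.

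Genes next to the members were examined because the strand setting of counting is not given, so reads of overlapping genes could be shared. Rnf31 overlaps Irf9 by 123 bp on the same strand and had log2 ratios of -0.05 and -0.15, and Tnpo3 overlaps Irf5 by 1045 bp on the opposite strand with -0.07 and 0.04. Phrf1, 79 bp from Irf7 on the opposite strand, had -0.10 and 0.04, while Cdhr5, 2601 bp away on the same strand as Irf7, had 6.41 FPKM in IL-10 KO against 0.946 in C57BL/6J wild type and 1.87 in Rag2 KO against 0.745 in BALB/c wild type. Bcl2l12, which starts 68 bp from Irf3 on the opposite strand, had 5.33 FPKM in IL-10 KO against 10.8 in C57BL/6J wild type and 8.09 in Rag2 KO against 7.28 in BALB/c wild type, and so was lowest in IL-10 KO as Irf3 was. Scaf1 (99 bp from Irf3) had -0.44 and -0.08, Gm15545 (3050 bp from Irf3) -0.26 and -0.29, and Gm16675 (223 bp from Irf2) 0.86 and 0.16. Gm17334 at Irf1, Gm31172, Gm45479 and Gm45481 at Irf2, Gm43029 at Irf5 and Gm20388 at Irf8 are annotated there and are not analysed here.

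Likeness of pattern was measured as the distance between profiles of log2 of FPKM plus 1 over the 4 libraries, each centred on its mean, among 8792 other genes with at least 5 FPKM in some library. For Irf7 the nearest genes were Irgm2 (distance 0.16), Irgm1 (0.17, also in the IRF1 target list) and Samhd1 (0.18), and only 6 genes lay within 0.25. Irgm2 had 64.7, 19.0, 79.98 and 31.6 FPKM in IL-10 KO, C57BL/6J wild type, Rag2 KO and BALB/c wild type. Irf5 was nearest to Gpr133 (0.07), Emilin2 (0.09) and Sele (0.10), with 33 genes within 0.25. Irf4 had no gene within 0.25, and its nearest were Lax1 (0.28), Parm1 (0.28) and Cd24a (0.29). The flatter members had many more genes as close, from 228 for Irf8 to 1234 for Irf2. Their nearest were Smarcb1, Mdp1 and Il17rc for Irf1, Hnrnph2, Txndc15 and Ndufa3 for Irf2, Snhg5 and Tmem120b for Irf3, Mitd1, Hars and Hs3st1 for Irf8, and Cdc123, Becn1 and Gpi1 for Irf9, at distances of 0.012 to 0.062. The points are 4 libraries that share strains and processing, so likeness over them is a description.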

How the data were processed

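RNA of sorted stromal cells from the large intestine was measured in 4 libraries, 1 per group. The deposited values are FPKM computed by the authors, fragments per kilobase of transcript and per mapped library total. Build mm10, Cuffdiff 2.2.1, SAMtools 0.1.18, TopHat2 2.1.1 and Bowtie2 2.2.8 are listed in the submitters' processing notes. The annotation, the strand setting and the library scaling were not given in the sources used here. Per the labels' protocols, libraries were made from total RNA with a stranded mRNA kit.

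With Python 3.11.15, numpy 2.4.6, pandas 2.3.3 and scipy 1.17.1, log2(FPKM + 1) was taken and libraries were subtracted. Genes with at least 1 FPKM in either library were compared, and an absolute log2 ratio of at least 1 was counted as 2-fold. A gene below 1 FPKM in either library passed only through the other, and could only be counted higher there. Several of the lists hold such genes. Adding 1 understates changes of low genes. Depth was estimated from the lowest FPKM of single-transcript genes of at least 1000 nt, with a length offset of 210 nt; the method was tested on simulated data. Members' fragments used their shortest GENCODE M21 basic transcript of at least 1000 nt; intervals are exact Poisson (levels) and exact binomial (ratios), 95%. Positions are RefSeq GRCm38.p6, the build of mm10, and promoters are from RefSeq. Small RNA rows held 8.82% to 14.8% of a library's FPKM.

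Members, 6 pathway lists, 11 marker lists, alternatives and the naming rule (all members, up to 4 of each pathway list with the largest ratio, the first 2 markers found, neighbours within 5 kb, the 3 nearest patterns) were chosen with earlier results of these data known. Some genes stand in 2 lists (among them Stat2, Thy1, Bst2, Batf3, Itgax, Naaa, Ms4a1). Il10, Rag2, Xist and Ddx3y were added as label checks. Adgre1, Mzb1, Spi1, Irf2bpl, Mb21d1, Ifnl2, Ifnl3 and protein sequences are not analysed here, and some genes that the naming rule picks are not reported here.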

Additional observations from a re-analysis of the deposited data

Results flagged for a closer look

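Irf4 is the member whose knockout comparisons went opposite ways: it was higher in IL-10 KO (log2 ratio 1.29, 6.38 against 2.02 FPKM) and lower in Rag2 KO (-0.73, 0.852 against 2.08 FPKM), a difference of 2.03. The difference was not tested, since each group has 1 library, and strain, sex and genotype cannot be told apart. On the plain ratio, with nothing added, the difference was 2.95 with a counting interval of 0.68 on either side.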

How the results depend on the processing

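In IL-10 KO against C57BL/6J wild type, 1 member in place of 3 was at least 2-fold higher with a pseudocount of 5, and 0 were past a 3-fold threshold; at 1.5-fold 1 member, Irf3, was lower. Scaling without small RNAs or to the upper quartile left 2 members higher. In Rag2 KO against BALB/c wild type, a pseudocount of 0.1 put 1 member, Irf4, at least 2-fold lower. A filter of 5 FPKM, which drops Irf4, moved the median of the members to 0.595. Thresholds of 1.5-fold and 3-fold gave 4 and 0 members higher, and 1.5-fold gave 1 lower. No count between the wild types changed. Against the wild type of the other strain, chosen after seeing the data, 3 members (IL-10 KO) and 1 member (Rag2 KO) were higher. The share of all genes was counted only at the main settings, so the members' counts under the alternatives cannot be read against it. Of 237 values of single members under the alternatives, 219 moved by no more than their counting interval reaches on either side. Another 18 moved by more, and 0 past 2-fold turned round. The 32 values with no filter and the 29 with a filter of 5 FPKM could not move, because a filter leaves a member's ratio unchanged. Scaling by the median ratio of all genes used factors of 0.9997 to 1.0005, so its 32 values could hardly move. Scaling without small RNAs shifted the median of all genes by -0.13 in both knockout comparisons. With a pseudocount of 5 the Irf4 difference between the knockout comparisons was 0.973, and with 0.1 it was 2.81. Depth limits Irf4 most, at about 38 fragments in Rag2 KO. No paired analysis was possible because each group has 1 library.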
